A study of Mus musculus with 2 samples.

Results

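Myc, its partner Max and 37 nucleolar ribosome biogenesis factors were described in mouse CD8 T cells that had or had not received the synthetic glucocorticoid prednisolone. The 39 genes were chosen by name out of 23462 genes that could be named on the array. All 39 were on the array, with 68 probes on 77 spots, and all 39 had at least 1 probe well above background on both arrays.

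In the prednisolone culture, naive CD8 T cells of C57BL/6 mouse spleen (CD44 low, CD62L high) received prednisolone (1 µM) during 2 days of stimulation. Stimulation was by immobilised anti-TCR-β (3 µg/ml) together with anti-CD28 (1 µg/ml), and the medium held interleukin-2 (10 ng/ml). The vehicle culture was handled in the same way without the drug. Both were moved to a new plate for 3 more days in interleukin-2, and total RNA of day 5 was hybridised to 1 Agilent 1-colour array per culture. With 1 array per culture there are no replicates, so no difference below has a test, a p-value or an estimate of the spread between cultures. The sources used here do not say how many animals stood behind each culture, or whether their cells were pooled.

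Ribosome production begins in the nucleolus, where RNA polymerase I transcribes a long precursor of the ribosomal RNAs. Small nucleolar ribonucleoproteins (snoRNPs) guide its chemical modification, a large assembly called the small subunit processome folds and cuts it, and separate sets of factors mature the 40S and 60S subunits before export. The transcription factor Myc, which binds DNA as a pair with Max, is known to drive many of these genes, and T cells raise Myc after receptor stimulation as they enlarge and divide.

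With prednisolone, 38 of the 39 genes were higher and 18 were at least 2-fold higher, with a median log2 difference (prednisolone minus vehicle) of 0.93. None was 2-fold lower. Among all 12900 genes measured on both arrays, the share at least 2-fold higher was 5.84% and the share at least 2-fold lower 6.73%, 50.2% lay above 0, and the median was 0.00317. A further 14 of the 39 lay between 1.5-fold and 2-fold higher, which makes 32 at 1.5-fold or more, where 14.5% of all genes were. The range ran from Rrp12 (1.77) and Utp20 (1.67) at the top to Imp3 (0.33) and Npm1 (−0.20) at the bottom. The genes were chosen with earlier results of these 2 arrays known, so these counts describe the list and are not evidence of its direction.

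A level here is the scanner software's processed signal on the log2 scale, relative to the 75th percentile of the same array. That percentile was 386.9 intensity units for prednisolone and 400.4 for vehicle. Signals below are processed signals in intensity units as deposited, before that scaling. They depend on the probe, so signals of different probes are not set against each other. The scanner software's error of a difference was 0.20 to 0.21 on the log2 scale for each of the 39 genes. It covers technical error only. Of the differences, 38 exceeded their error, and 35 exceeded 2 times their error. The share of all 12900 measured genes that exceeded theirs was not computed. The quartiles of the differences of all measured genes were −0.35 and 0.35. Without that share, these counts are not read as a trait of the 39 genes. In RNA of a whole culture, a change in the make-up of the cells cannot be told apart from a change of transcript level per cell.

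Myc lay higher on the prednisolone array by both of its probes. The brighter probe read 3768 with prednisolone and 2389 with vehicle, and the dimmer probe read 470.0 with prednisolone and 256.9 with vehicle. The log2 difference of Myc was 0.81 (1.76-fold), with its probes at 0.71 and 0.92. Max, the partner that Myc needs to bind DNA, read 7549 and 577.4 by its probes with prednisolone and 5549 and 416.9 with vehicle. Its difference was 0.51 (1.42-fold). Neither gene of the pair was 2-fold apart under the reported scaling. When the arrays were scaled on spike-in RNA, which adds 0.24 to every difference, Myc was 1.05 and Max 0.75.

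**Figure D1:**
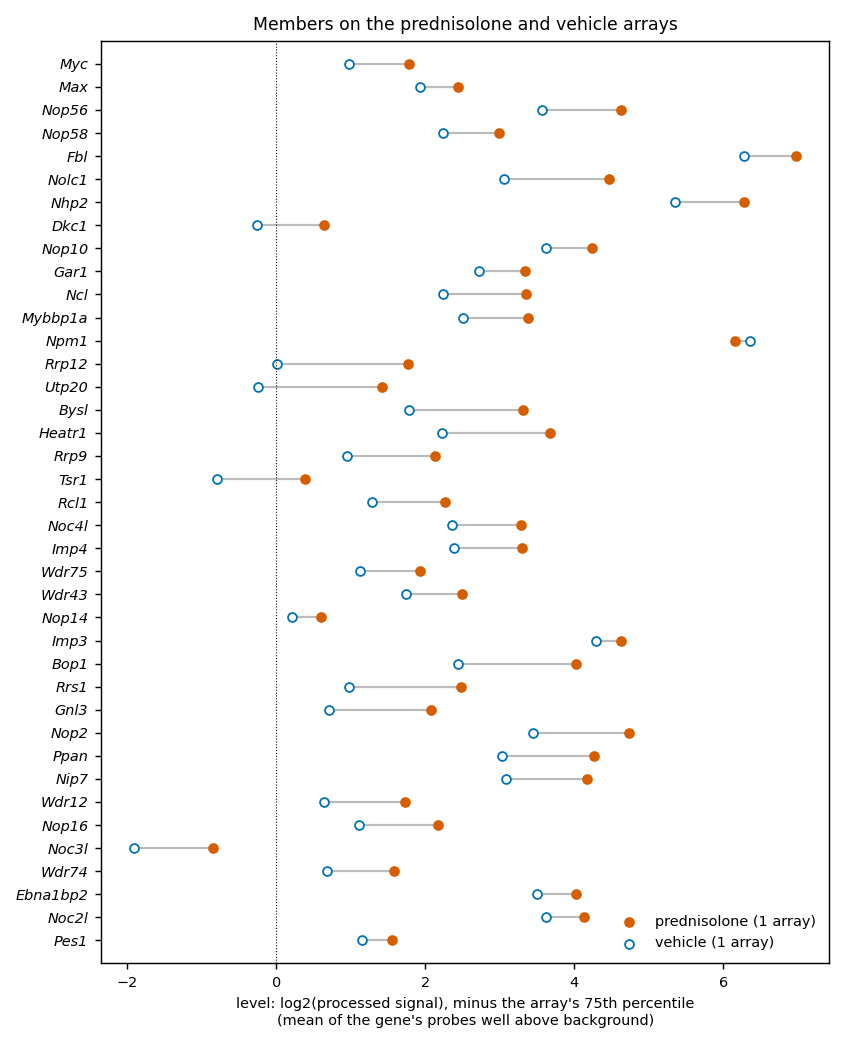
Level of each of the 39 genes (log2 scale, relative to the 75th percentile of the same array, mean of the gene's probes) on the prednisolone array (filled) and the vehicle array (open), by role and then by difference. The filled point lies right of the open one for all genes but Npm1, and Rrp12 and Utp20 have the longest lines.

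Myc and Max together recognise the E-box, whose core is CACGTG, so the promoter windows of the 39 genes were searched for these letters. The windows run from 250 bases before to 50 after an annotated RefSeq start (build GRCm38.p6), and CACGTG reads the same on both strands. Of the 39 genes, 33 had an entry and 8 of them (24.2%) held CACGTG. Among the 10336 measured genes with an entry the share was 11.4%, and among the 606 measured genes with an entry that were at least 2-fold higher with prednisolone it was 19.5%. Counted by window, it was 22.2% of the 36 windows of the listed genes, 9.67% of the 13081 windows of measured genes and 7.15% of all 32851 windows in the table. The near-match CACGCG, or CGCGTG on the other strand, was found in 30.3% of the 33 genes and in 19.1% of the measured genes. Among the 606 genes at least 2-fold higher its share was 19.6%. The 8 matches are shown with up to 12 bases on each side, 5′ to 3′ on the gene's strand, with the E-box core in capitals, so that their flanks can be compared. Those that lie just after the start fall in the transcribed part of the gene.
Nop2 (chr6:125131811-125131840, + strand, first base 60 before the start): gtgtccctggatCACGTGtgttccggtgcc
Imp4 (chr1:34439696-34439725, + strand, 121 before the start): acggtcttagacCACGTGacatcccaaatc
Max (chr12:76962234-76962263, − strand, 3 before the start): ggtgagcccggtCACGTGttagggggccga
Pes1 (chr11:3963965-3963994, + strand, position 3 after the start): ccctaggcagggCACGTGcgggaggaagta
Wdr43 (chr17:71616220-71616249, + strand, position 18): cgcccgggcgaaCACGTGgctgccgcggag
Tsr1 (chr11:74898092-74898121, + strand, position 25): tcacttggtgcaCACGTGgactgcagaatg
Utp20 (chr10:88826765-88826789, − strand, position 38): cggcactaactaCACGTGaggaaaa
Mybbp1a (chr11:72441355-72441376, + strand, position 41): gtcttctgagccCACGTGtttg

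For Nop2, which was 2.43-fold higher with prednisolone and holds its E-box core before the start, the whole 250 bases upstream of the start (chr6:125131633-125131882, + strand, build GRCm38.p6) are shown, again with the core in capitals.
Nop2 upstream: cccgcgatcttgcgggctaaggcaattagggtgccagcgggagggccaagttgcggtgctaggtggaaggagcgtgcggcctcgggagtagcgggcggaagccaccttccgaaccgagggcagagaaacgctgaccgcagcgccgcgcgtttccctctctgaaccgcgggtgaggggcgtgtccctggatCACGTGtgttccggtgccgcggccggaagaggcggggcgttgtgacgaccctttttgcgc

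The 8 genes with CACGTG had a median log2 difference of 0.90, from 0.41 for Pes1 to 1.67 for Utp20, and 3 of them were at least 2-fold higher. The 25 genes with an entry and no such match had a median of 0.98, from 0.33 to 1.53, and 12 were at least 2-fold higher. The 2 ranges overlapped over most of their length. Myc, Fbl, Npm1, Rrp12, Bop1 and Rrs1 had no entry. A match is a description of the letters in the window and says nothing of binding in these cells.

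Among the proteins of the box C/D snoRNPs, which place 2′-O-methyl groups on ribosomal RNA, all 3 listed genes were at least 1.5-fold higher. Snu13, a further core protein, was counted here with the other small subunit factors. It read 6770 with prednisolone and 5312 with vehicle, 1.32-fold higher (0.40). Nop56, a scaffold of the particle, read 23635 and 3844 by its probes with prednisolone and 11598 and 1945 with vehicle, a difference of 1.05 (2.08-fold). Nop58, the other scaffold, had 4 probes from 0.63 to 0.87 and a mean of 0.75. Fbl, the gene of the methyltransferase fibrillarin, read 48836 with prednisolone and 30959 with vehicle, which is 1.63-fold higher (0.71).

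The box H/ACA snoRNPs convert uridine to pseudouridine, and their core proteins are also part of telomerase. All 4 core genes and the chaperone gene Nolc1 were at least 1.5-fold higher. Nolc1, whose product binds both kinds of snoRNP, read 8576 with prednisolone and 3340 with vehicle and was the farthest apart of the 5, at 1.41 (2.66-fold). Nhp2 read 29962 with prednisolone and 16381 with vehicle (1.89-fold). Dkc1, the gene of the pseudouridine synthase dyskerin, had probes at 0.84 and 0.94 and a mean of 0.89. Nop10 (0.63) and Gar1 (0.62), the other core genes, lay just above 1.5-fold.

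The 3 genes of abundant nucleolar proteins went apart. Npm1, which encodes nucleophosmin, a histone and ribosome chaperone of the outer nucleolus, was the single gene of the 39 that lay lower with prednisolone. Its main probe was printed 10 times, with signals from 38729 to 47682 (median 41315) with prednisolone and from 46979 to 57898 (median 51247) with vehicle. The 2 ranges overlapped in intensity units, but each of the 10 spots was lower with prednisolone than the spot at the same place on the vehicle array, with a mean scaled difference of −0.25 ± 0.024 (SD over 10 spots of 1 array pair, a technical spread). The gene's mean over its 3 probes was −0.20, within the software's error, and it was 0.04 when the arrays were scaled on spike-in RNA. Mybbp1a, whose product binds Myb and sits in the nucleolus, was 1.84-fold higher, with 3 probes from 0.84 to 0.93.

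The probes of Ncl, the gene of nucleolin, did not give 1 answer. The bright probe read 27603 with prednisolone and 21629 with vehicle (0.40), and the dim probe read 559.8 with prednisolone and 165.2 with vehicle (1.81). Their mean was 1.11, which counts as 2-fold higher. Of the 21 genes with several usable probes, Ncl was the single one whose probes lay more than 0.3 apart on the log2 scale. The bright probe carried an outlier flag for its local background on the vehicle array. Without flagged spots Ncl was 1.81, and by its brightest probe 0.40, so its size rests on the choice of probe.

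**Figure D2:**
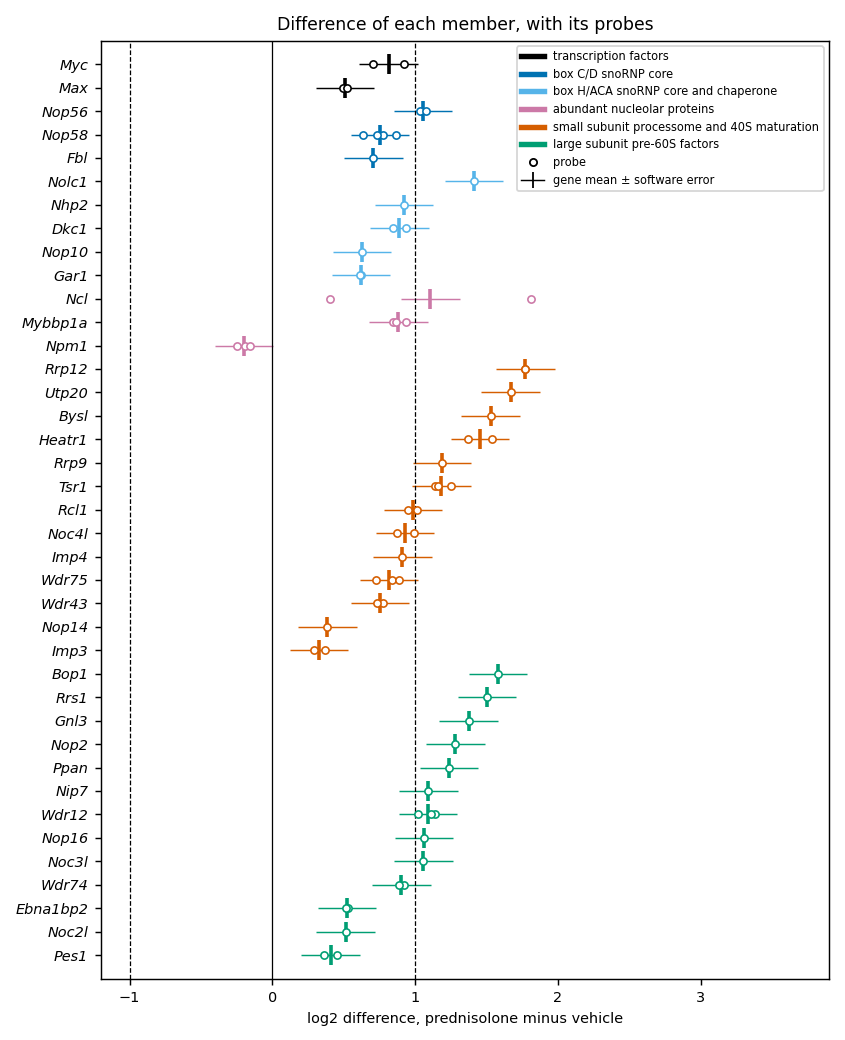
Log2 difference, prednisolone minus vehicle, of each gene (bar, with the scanner software's error as a line) and of its probes well above background (open points), coloured by role, with dashed lines at 2-fold. Of the 67 probes 64 lie right of 0, the 3 others are those of Npm1, and the 2 probes of Ncl lie far apart.

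Of the 13 genes of the small subunit processome and of 40S maturation, all were higher with prednisolone, 6 at least 2-fold and 11 at least 1.5-fold, with a median of 0.98. Rrp12, needed for late maturation and export of subunits in yeast, read 5565 and 313.1 with prednisolone and 1691 and 95.0 with vehicle. Its probes gave 1.77 each (3.41-fold), and it ranked 199 from the top of 12900 genes. Utp20, a very large processome scaffold, read 1033 with prednisolone and 336.4 with vehicle, a 3.18-fold difference that rests on 1 probe. Bysl, which encodes bystin, a 40S maturation factor, read 3825 with prednisolone and 1374 with vehicle (2.88-fold). These 3 were the top of the group.

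Heatr1 belongs to the subcomplex that links precursor transcription to its first processing steps. It read 9692 and 2513 by its usable probes with prednisolone and 3884 and 895.0 with vehicle, 2.74-fold higher (1.45). Another probe was well above background with prednisolone (46.1) and not with vehicle (14.7), and was not used. Wdr43 (0.75) and Wdr75 (0.82), of the same subcomplex, lay between 1.5-fold and 2-fold, so its 3 genes here were all higher but by unequal amounts. Rrp9, a protein specific to the U3 snoRNP, was 2.28-fold higher, and Tsr1, a late 40S factor, was 2.27-fold higher with 3 probes from 1.14 to 1.25.

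Rcl1 (0.98) and Noc4l (0.93) lay just under 2-fold. Nop14, whose yeast counterpart binds that of Noc4l, was at 0.38, with signals of 586.0 with prednisolone and 464.6 with vehicle. Imp4 and Imp3 sit together in the U3 particle and differed in size, at 0.91 and 0.33. Imp3 read 17746 and 5099 with prednisolone and 15042 and 4090 with vehicle, the smallest of the positive differences.

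The 13 factors of the 60S subunit were also all higher, 9 at least 2-fold and 10 at least 1.5-fold, with a median of 1.09. Bop1, Wdr12 and Pes1 encode the 3 parts of the PeBoW complex, which is needed for processing of the large subunit RNAs. Bop1 read 6257 with prednisolone and 2167 with vehicle, 2.99-fold higher (1.58). Wdr12 was 2.13-fold higher, with its 3 probes from 1.02 to 1.14. Pes1 read 8836 and 145.6 by its probes with prednisolone and 6673 and 117.4 with vehicle, 1.33-fold higher (0.41). Bop1 and Pes1, parts of 1 complex, thus stood at the top and the bottom of the group.

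Rrs1, which helps to place the 5S particle on the growing 60S subunit, read 2163 with prednisolone and 789.3 with vehicle (2.84-fold). Gnl3, the gene of the nucleolar GTPase nucleostemin, read 1632 with prednisolone and 652.1 with vehicle (2.59-fold). Nop2, a methyltransferase of the large subunit RNA whose promoter is printed above, read 10246 with prednisolone and 4362 with vehicle. Ppan read 7417 with prednisolone and 3260 with vehicle (2.35-fold), and Nip7 read 6957 with prednisolone and 3376 with vehicle (2.13-fold). Each of these 5 rests on 1 probe.

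Nop16 (1.06) and Noc3l (1.06) lay just over 2-fold and Wdr74 (0.90) just under it. Noc2l, which pairs with the Noc3l product on pre-60S particles, was at 0.51, with 6758 for prednisolone and 4905 for vehicle. Ebna1bp2 was at 0.52, with probes at 0.53 and 0.52. Noc3l had dim signals, 214.2 with prednisolone and 106.5 with vehicle, and was 0.86 after another background correction (normexp), as Tsr1 was 0.92. Of the 18 genes at least 2-fold higher, 15 stayed so under each of the 13 other processing settings that gave them a value. The exceptions were Ncl, Noc3l and Tsr1. Most changes of scaling, and the deposited value table, add a constant to every difference. Restricting the annotation changed no value of the genes described.

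Outlier flags fell on spots of 6 of the 39 genes (Ncl, Npm1, Nop14, Nop16, Rrp12 and Ebna1bp2), on 9 spots of the prednisolone array and 6 of the vehicle array. All were flags of the local background. No spot of the 39 genes was saturated. In 20 of the 21 genes with several usable probes every probe was higher with prednisolone. In 5 of the 6 such genes called 2-fold higher every probe was at least 2-fold higher. The same counts were not made over all genes.

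Other factors of the same pathway, from lists written with earlier results known, showed smaller differences in most cases. Of 42 other small subunit factors measured, 7 were at least 2-fold higher and 37 lay above 0, with a median of 0.43. The highest were Nol6 (1.56), Pno1 (1.48) and Pwp2 (1.44), and the lowest were the kinase gene Riok1 (−0.47), Utp11 (−0.29) and Ddx52 (−0.22). Of 45 other large subunit factors, 8 were at least 2-fold higher and 40 lay above 0, with a median of 0.64. Wdr18 (1.76, from 1 dim probe), the helicase gene Ddx51 (1.38) and the methyltransferase gene Ftsj3 (1.36) led. At the low end were Zfp622 (−0.41), Nsa2 (−0.32) and Nvl (−0.20). The 2 probes of Nvl disagreed, at −0.72 and 0.32, and its mean lay within its software error of 0.22. None of the 11 snoRNP assembly factors was 2-fold apart (median 0.34), and Naf1, which loads the H/ACA core, was the highest at 0.92. Pih1d1 (−0.02), Nufip1 (0.04) and Ruvbl2 (0.05) lay at the low end. Over these 3 lists 15.3% of 98 measured genes were at least 2-fold higher, against 46.2% of the 39 genes described here.

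The structural proteins of the ribosome did not follow. None of 57 cytosolic ribosomal protein genes was 1.5-fold apart in either direction, with medians of −0.07 for 29 large subunit genes and −0.08 for 28 small subunit genes. The lowest value was −0.31 (Rpl24). Rpl24, Rpl18 and Rpl22 were lowest and Rpl30 (0.22), Rpl37 (0.08) and Rpl8 (0.08) highest in the large subunit. The 3 probes of Rpl30 disagreed, from −0.14 to 0.91, and Rpl37 rested on 1 dim probe, at 15.9 intensity units with prednisolone and 15.5 with vehicle, with a software error of 0.41. In the small subunit Rps2, Rps16 and Rps23 were lowest. The sign of both medians was not stable. They were 0.17 for the large and 0.16 for the small subunit with spike-in scaling, which moved the median of all genes to 0.24, and 0.04 and 0.02 after quantile normalization, and no gene of the 57 was 2-fold apart under either. Many of these transcripts have near-identical processed pseudogenes that a probe can also detect.

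**Figure D3:**
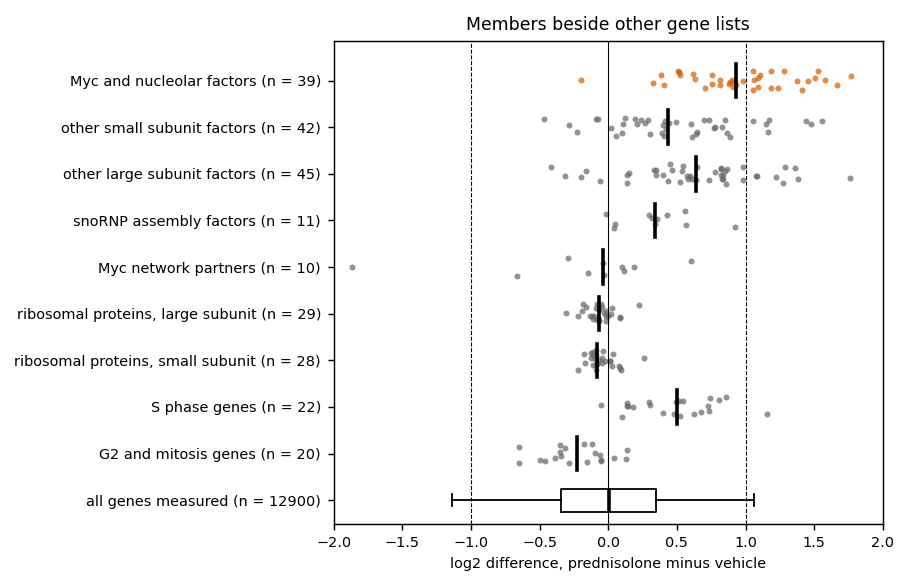
Log2 difference, prednisolone minus vehicle, of the measured genes of each list (points, with the median as a bar) and of all 12900 genes measured (box of quartiles, whiskers from the 5th to the 95th percentile). Myc and the nucleolar factors have a median of 0.93, other factors of both subunits 0.43 and 0.64, and the ribosomal proteins lie close to 0.

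Among 10 measured partners and relatives of Myc and Max, the median was −0.04 and 1 gene was 2-fold apart. Mxi1, which encodes a repressor that competes with Myc for Max, read 1126 with prednisolone and 4254 with vehicle, 3.65-fold lower by its 1 probe (−1.87). Mxd4, of the same repressor family, was at −0.67 from dim signals, and the Myc relative Mycn was at −0.29. Mlxip (0.60), Mxd3 (0.19) and Mlxipl (0.11) were highest. The dimmer probe of Mlxip read 40.6 with prednisolone and 29.7 with vehicle, and that of Mlxipl 80.1 with prednisolone and 82.4 with vehicle. Mycl had no probe well above background. The sign of this list's median was not stable. It was 0.20 with spike-in scaling, 0.01 after normexp, 0.02 when scaled to the array median and 0.03 in the deposited value table.

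Lists of S phase and of mitosis genes were set beside these values. Of 22 measured S phase genes, 21 lay above 0 and 1 was at least 2-fold higher, Ccne1 (1.16), with a median of 0.50. Cdc6 (0.85) and Mcm2 (0.80) followed, and Pola1 (−0.05), Pold1 (0.10) and Rfc3 (0.13) were lowest. Ccne2 was well above background on 1 array only. Of 20 genes of G2 and mitosis, 17 lay below 0 and none was 2-fold apart, with a median of −0.23 that became 0.01 with spike-in scaling. Cenpf and Cenpa (−0.65 each) and Bub1 (−0.50) were lowest, and Mki67 (0.14), Birc5 (0.13) and Ccnb1 (0.04) highest. The part of the cell cycle in the differences of the 39 genes was not tested.

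The labelled cell type was checked on 10 genes of CD8 T cells, and all were well above background on both arrays. Cd8a (−0.01), Cd8b1 (−0.17), Cd2 (0.10), Zap70 (−0.23), Lck (−0.34), Cd5 (−0.46) and Cd3e (−0.53) were within 1.5-fold. Cd3d (−0.61), Cd247 (−0.76) and Cd3g (−0.87) were more than 1.5-fold lower with prednisolone. Their levels, as multiples of the array's 75th percentile, summed to 456.5 with prednisolone and 570.5 with vehicle.

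Some markers of other cells were measured on both arrays. The summed levels of these were 2.75 with prednisolone and 3.59 with vehicle for 3 of 4 CD4 T cell genes, 4.23 with prednisolone and 2.69 with vehicle for 2 of 7 B cell genes, and 3.51 with prednisolone and 5.65 with vehicle for 4 of 10 myeloid genes. For 2 of 6 genes of NK and γδ T cells they were 2.31 with prednisolone and 0.91 with vehicle, and for 2 of 7 erythroid and platelet genes 2.51 with prednisolone and 0.48 with vehicle. Those with no probe well above background included Ms4a1, Cd79a, Blk, Cd40lg, Lyz2, Fcgr3, S100a8, S100a9, Ncr1, Alas2, Pf4 and Ppbp. Cd79b was at 1623 intensity units with prednisolone and 1063 with vehicle, and Ly6g at 791.5 with prednisolone and 1211 with vehicle. The log2 differences of the measured ones were Cd4 (0.08), Foxp3 (−0.75), Zbtb7b (−0.93), Cd79b (0.66), Pax5 (−0.09), Itgam (0.02), Ly6g (−0.56), Cd68 (−2.43), Klrb1c (0.07), Cd163l1 (1.41), Hbb-bt (0.87) and Hba-a1 (3.97), and Csf1r, which differed by less than 0.1. Klra8 was seen with prednisolone alone and was at least 6.12-fold higher, and Vpreb3 was seen with vehicle alone and was lower with prednisolone by at least 17.4-fold. For such a bound, the dim array was given the probe's measured level or the level of the dimmest probe that passed there, whichever was higher. The part of other cells in the differences of the 39 genes was not tested.

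Of all spots that were no controls, 53.5% were well above background on each array. The median SD of the log2 difference was 0.028 over 282 probes printed 10 times or more that were well above background on both arrays. That spread is technical and leaves out labelling, hybridization and culture.

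**Figure D4:**
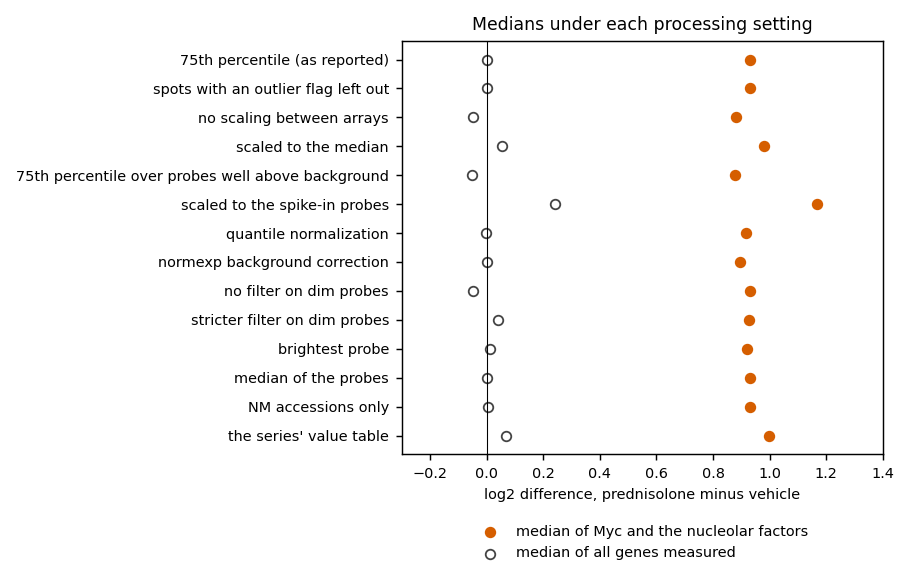
Median log2 difference, prednisolone minus vehicle, of the 39 genes (filled, fewer where a setting leaves some without a value) and of all genes measured (open) under the reported setting and 13 others. The filled points lie between 0.88 and 1.17 and move with the open ones under spike-in scaling.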

How the data were processed

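Per the file headers, the deposited scanner output holds linear intensity values from Agilent Feature Extraction 12.0.3.1 (array design of build mm9), background-subtracted and detrended within the array and not scaled between arrays. The deposited value table (intensity) equals those signals times 1 constant per array, 0.858 for prednisolone and 0.792 for vehicle, whose origin was not given in the sources. Per the labels, 100 ng of total RNA was amplified and labelled with Cy3.

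The 75th percentile of the 59305 non-control spots of each array was subtracted on the log2 scale. Spots of a probe were averaged, with flagged spots kept. Unversioned accessions were looked up in a RefSeq table (GRCm38.p6), which named 33767 of 56605 probes. Genes were valued by averaging their probes that were well above background on both arrays (12900 genes). Array coordinates are not given, since the builds differ. The software's errors were averaged over probes in quadrature. A difference of at least 2-fold was counted, with no test, since there is 1 array per group. The 39 genes, the lists and the settings were chosen with earlier results of these data known. The genes named are all 39, the 3 highest and lowest measured genes of each other list, bounds of at least 2-fold, and markers. Snu13 and the genes under other observations were named as well. Lists were described by counts and medians. The procedure was tested on simulated data. Python 3.11.15, pandas 2.3.3, R 4.3.3 and limma 3.58.1 (normexp, offset 50) were used. Alternatives changed the flags, scaling, background correction, dim-probe filter, probe summary, annotation and value table.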

Additional observations from a re-analysis of the deposited data

How the results depend on the processing

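Under the 13 other settings the number of genes at least 2-fold higher ran from 15 of 39 (normexp, where 3.27% of all genes were) to 27 of 39 (spike-in scaling, where 9.72% of all genes were higher and 4.12% lower), against 18 as reported. The median ran from 0.88 to 1.00, except with spike-in scaling, where it was 1.17, and that scaling adds 0.24 to every difference. Of the 39 genes, 38 kept a positive difference wherever they had a value, and Npm1 was 0.04 with spike-in scaling, against −0.20 as reported. Apart from that scaling, 5 values of 3 genes moved by more than the software's error: Ncl (1.81 without flagged spots, 0.40 with the stricter filter or the brightest probe), and, after normexp, Rrp12 (1.49) and Tsr1 (0.92). Nop14 and Nop16 had no value without flagged spots, and Noc3l had none with the stricter filter. No paired analysis was possible because each group has 1 array, and no replicate could be left out. Dim signals limit Noc3l and the dimmest probes of Tsr1, Rrp12, Pes1 and Ncl.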

Other observations

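Further factors of the pathway, chosen after their values were seen, showed unequal differences within known complexes. In the UTP-B part of the processome Pwp2 was at 1.44, Tbl3 at 0.86, Wdr36 at 0.64, Wdr3 at 0.50 and Utp6 at 0.29. The 2 probes of Tbl3 were at 0.59 and 1.14. Those of Wdr3 were at 0.32 and 0.67, with the dimmer one at 46.9 intensity units with prednisolone and 38.9 with vehicle. Utp18, of the same complex, was well above background with prednisolone alone and was at least 1.37-fold higher. Mphosph10, which holds Imp3 and Imp4 in the processome, was at 1.17. Among genes of the 60S assembly that acts with Pelp1 (0.74), Wdr18 was at 1.76, Nol9 at 1.08, Senp3 at 0.59, Las1l at 0.44 and Tex10 at 0.35. Among late 40S factors Pno1 was at 1.48, Ltv1 at 1.17 and Tsr2 at 1.15. The nuclease gene Nob1 was at 0.39, the kinase gene Riok2 at 0.42 and Riok1 at −0.47. Wdr18 and Tsr2 rest on 1 dim probe each. Wdr18 read 123.8 with prednisolone and 37.9 with vehicle, and Tsr2 read 122.8 with prednisolone and 57.3 with vehicle. The dimmer probe of Mphosph10 read 126.8 with prednisolone and 54.8 with vehicle. That of Riok2 read 64.9 with prednisolone and 46.4 with vehicle. All values are log2 differences, prednisolone minus vehicle, from 1 array each and without a test.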
